A study of Mus musculus with 21 samples.

Results

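Of the 33861 genes in the count table, 9 encode the proteins that copy, write and remove DNA methylation, and these 9 were taken by their gene symbols. They are Dnmt1 and Uhrf1 (maintenance), Dnmt3a, Dnmt3b and Dnmt3l (de novo methylation), Tet1, Tet2 and Tet3 (oxidation of methylcytosine) and Tdg (excision of oxidised bases). All 9 passed the filter on low counts in every comparison. Their positions (GRCm38, strand as annotated) are Dnmt1 chr9:20907209-20959888, minus strand, Uhrf1 chr17:56303321-56323486, plus strand, Dnmt3a chr12:3806007-3914443, plus strand, Dnmt3b chr2:153649450-153687730, plus strand, Dnmt3l chr10:78041947-78063622, plus strand, Tet1 chr10:62804570-62908996, minus strand, Tet2 chr3:133463679-133545139, minus strand, Tet3 chr6:83362373-83459084, minus strand and Tdg chr10:82629828-82650799, plus strand. All are protein-coding, and the table gives 1 count per gene, so isoforms cannot be told apart.

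DNA methylation in mammals lies mostly on the cytosine of CG dinucleotides. DNMT1 copies it to the new strand after replication, brought there by UHRF1, which binds the CG sites methylated on the old strand alone. DNMT3A and DNMT3B write methylation where there was none, and DNMT3L, which has no catalytic activity of its own, stimulates them. The TET dioxygenases oxidise methylcytosine, and TDG removes the oxidised bases so that repair can put back plain cytosine. In the mouse embryo methylation is rebuilt around implantation in the epiblast, the tissue that gives rise to the fetus.

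RNA was sequenced from 12 samples of cultured pluripotent cells, each of 1000 cells, and from 9 single mouse epiblasts. FS cells, labelled formative stem cells, were grown in a medium called A3XR and came from line 1 (FS1, passages 10, 11 and 18) and line 2 (FS2, passages 12, 13 and 16). AF and AFX cells are labelled EpiSCs, epiblast stem cells, carry the name of the embryonic stem cell line E14 and were grown in media of the same names (passages 14, 15 and 16 of each). The epiblasts came from embryonic days 5.0 (embryos 1, 2 and 4), 5.5 and 6.0 (embryos 1, 2 and 3 of each). For the last stage the sample titles say E6.0 where a second field has 6.5; E6.0 is used here. The labels give no strain, sex or genotype for the embryos. Cultured replicates are passages of a line, not separate derivations, so their spread is that between passages, and FS against AF or AFX sets different lines in different media against each other. Cultured cells against epiblasts also sets a pool of 1000 cells against a single epiblast. In such bulk samples fewer cells that express a gene and less RNA per cell cannot be told apart.

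Total counts ran from 5827093 to 15916800 per sample, and 3 counts, taken as the floor of detection, were worth 0.171 to 0.59 CPM (counts per 1000000 counts, scaled by the TMM factors of edgeR). All 10 epiblast markers (Pou5f1, Sox2, Nanog, Otx2, Fgf5, Utf1, Sall4, L1td1, Tdgf1 and Pou3f1) were over that floor in at least 1 sample of every group. Tdgf1 was low in FS, at 1.54 ± 1.19 CPM with a lowest value of 0.236, against 86.6 ± 30.5 in AF. The summed level of 12 visceral endoderm markers was 264 to 835 CPM at E5.0, 31.8 to 71.7 at E5.5, 12.8 to 28.3 at E6.0, 87.8 to 184 in AF, 13.04 to 46.96 in AFX and 0.241 to 13.7 in FS. Apoa4 and Afp had no counts in the cultured cells. The 10 feeder fibroblast markers summed to 239 to 283 CPM in AF, 42.8 to 72.1 in AFX, 26.3 to 60.1 in FS and 11.9 to 29.7 in the epiblasts, where Postn was at 0. The 10 extraembryonic ectoderm markers summed to 35.2 to 167 CPM in cultured cells and 26.5 to 197 in epiblasts.

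Sequences before 1 RefSeq transcript start of each of 4 members are shown because these genes carry the differences described here: Dnmt3b and Dnmt3l moved in opposite directions between E5.0 and E6.0, Tet1 fell late, and Tet2 was the member higher in culture. Each is the 250 bases before a RefSeq transcript start (GRCm38.p6), read 5′ to 3′ on the gene's strand, in lower case with each CG, the dinucleotide on which these enzymes act, in capitals.
Dnmt3b, chr2:153649199-153649448, plus strand: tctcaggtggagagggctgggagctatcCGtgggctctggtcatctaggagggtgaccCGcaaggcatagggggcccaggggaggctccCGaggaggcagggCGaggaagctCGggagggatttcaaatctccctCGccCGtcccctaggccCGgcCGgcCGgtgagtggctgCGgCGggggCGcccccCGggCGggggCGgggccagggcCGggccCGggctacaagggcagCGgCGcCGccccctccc
Dnmt3l, chr10:78042037-78042286, plus strand: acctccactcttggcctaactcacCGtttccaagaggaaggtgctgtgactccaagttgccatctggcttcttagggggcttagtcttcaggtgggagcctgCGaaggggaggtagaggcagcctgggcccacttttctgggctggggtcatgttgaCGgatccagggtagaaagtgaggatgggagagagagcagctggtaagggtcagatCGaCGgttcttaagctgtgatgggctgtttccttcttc
Tet1, chr10:62887325-62887574, minus strand: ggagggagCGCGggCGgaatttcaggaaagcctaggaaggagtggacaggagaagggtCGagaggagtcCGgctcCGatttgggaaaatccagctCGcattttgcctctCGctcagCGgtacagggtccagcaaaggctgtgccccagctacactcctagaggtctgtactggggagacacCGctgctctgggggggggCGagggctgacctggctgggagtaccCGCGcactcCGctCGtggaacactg
Tet2, chr3:133544391-133544640, minus strand: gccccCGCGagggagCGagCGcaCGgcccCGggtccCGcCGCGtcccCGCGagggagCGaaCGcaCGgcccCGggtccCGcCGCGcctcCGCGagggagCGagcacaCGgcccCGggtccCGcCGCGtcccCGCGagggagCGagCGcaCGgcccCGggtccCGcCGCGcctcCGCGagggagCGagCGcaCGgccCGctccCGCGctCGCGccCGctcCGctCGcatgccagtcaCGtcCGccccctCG
The Dnmt3b window ends before the GENCODE gene, and the other 3 lie inside theirs, since GENCODE also has transcripts that start farther upstream. The windows hold 21, 5, 15 and 51 CG dinucleotides in that order. Of 32851 windows of the same length before RefSeq starts, 92.1% held at least 1 CG, with a median of 6 and quartiles of 2 and 16. At least as many as in the Dnmt3l window stood in 55.6% of windows, and at least as many as in the Tet2 window in 0.067%. Dnmt3l has 3 annotated starts, and the first is shown; counts per gene cannot tell which start was used. No methylation was measured here, and the CG counts are a description of the windows only.

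Per kilobase of exon, Dnmt3b was the highest of the 9 at every stage and in every culture. Its mean was 1017 CPM per kb at E6.0 and 154 in AF, against 116 and 70.8 for Uhrf1, the next, and 33.8 and 10.3 for Dnmt3a. Tet2 was lowest in the epiblasts, at 0.423 CPM per kb over the 9 samples, and Dnmt3l was lowest in FS, at 0.494. All 9 are shown by sample in the plot of CPM by group. Between the group with the highest and the group with the lowest mean CPM, Dnmt1, Tet3 and Tdg differed by 1.48, 1.45 and 1.43 times, Tet1, Uhrf1 and Dnmt3a by 2.68, 2.84 and 3.74 times, and Tet2 and Dnmt3b by 6.54 and 6.61 times. Dnmt3l ran from 349 ± 72.5 CPM at E5.0 to 0.272 ± 0.0985 in FS1 (SD, n = 3), where it was at the floor.

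**Figure D1:**
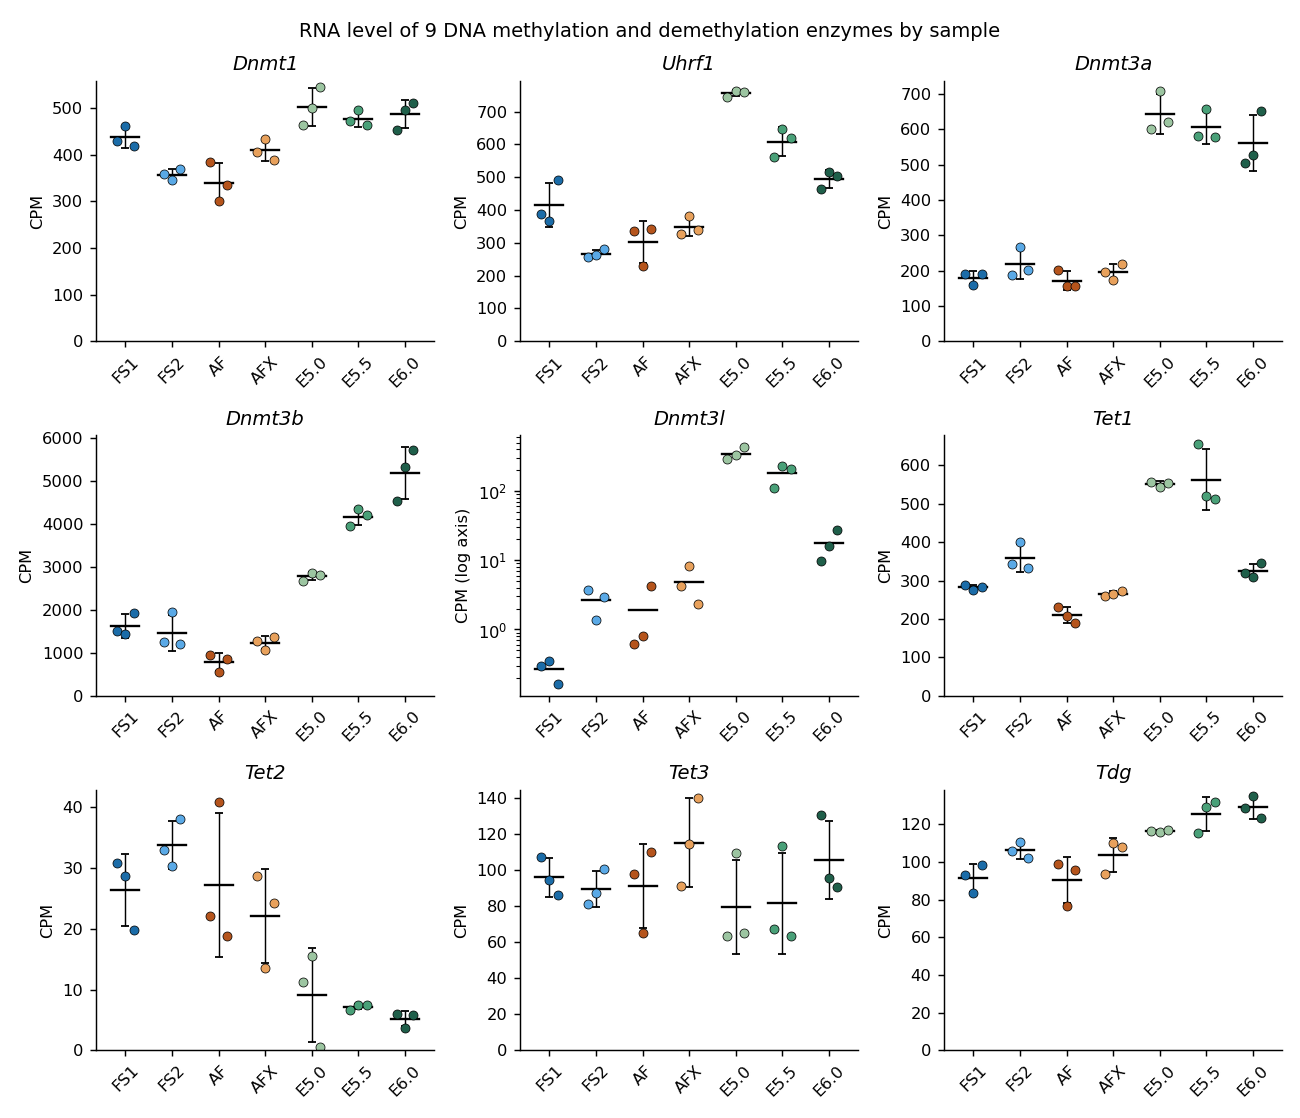
RNA level (CPM) of the 9 genes in 7 groups, 1 point per sample (3 per group), with the group mean as a line and the SD as a bar; the Dnmt3l axis is logarithmic and shows no SD. Dnmt3b climbs from E5.0 to E6.0 while Dnmt3l falls. The samples of Dnmt3a, Dnmt3b, Dnmt3l and Tdg do not overlap between cultured cells and epiblasts. The share of all genes without such overlap was not computed, and 61.8% of all genes tested were called in that comparison.

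The epiblast series asks how the methylation machinery changes over the days in which methylation is rebuilt. Between E5.0 and E6.0, 4 of the 9 genes passed the test: Dnmt3b rose, and Dnmt3l, Tet1 and Uhrf1 fell. In that comparison 21.8% of all genes tested were called, 10.2% higher and 11.6% lower. Dnmt3b rose 1.84-fold and Dnmt3l fell by 4.32 on the log2 scale, so that these partners in de novo methylation moved in opposite directions. Dnmt1, Dnmt3a, Tet3 and Tdg did not pass the test in any pair of stages, and Tet2 did not either in the unblocked fit of all 9 epiblasts. The median log2 fold change of the 9 genes from E5.0 to E6.0 was -0.21, against -0.022 over all 14228 genes tested.

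Of the maintenance genes, Uhrf1 stood at 745, 763 and 760.4 CPM in the E5.0 embryos, 560.4, 646 and 619 at E5.5 and 463, 516 and 504 at E6.0. No sample of an older stage reached a sample of the stage before. Its log2 fold change was -0.63 ± 0.082 (adjusted p = 0.000115) from E5.0 to E6.0, -0.33 ± 0.081 (adjusted p = 0.0287) from E5.0 to E5.5 and -0.30 ± 0.081 (adjusted p = 0.0519) from E5.5 to E6.0 (edgeR's quasi-likelihood test, Benjamini-Hochberg adjusted). The last step passed with DESeq2's Wald test (0.0305), with only these stages fitted (0.0345) and with ribosomal RNA loci removed (0.0499). It passed in 0 of the 6 fits that left out 1 embryo, and its adjusted p reached 0.224 over all alternative fits. The fall from E5.0 to E5.5 no longer passed when any 1 of 5 of the 6 embryos was left out, the exception being E5.0 embryo 1, with adjusted p between 0.052 and 0.121. Dnmt1, by contrast, was at 464, 499 and 545 CPM at E5.0 and 452, 496 and 509.8 at E6.0, ranges that overlap, with a log2 fold change of -0.064 ± 0.089 (adjusted p = 0.658). The difference between these 2 genes was not tested. A list of 14 replication genes, whose products work beside maintenance in S phase, had 6 members lower at E6.0 than at E5.0, among them Cdc6 at -0.75 ± 0.12 and Tyms at -0.54 ± 0.11, and none higher, where 11.6% of all genes were called lower and 10.2% higher. Its summed level was 3881 to 4223 CPM at E5.0 and 3600.3 to 3834 at E6.0; its part in the Uhrf1 result was not tested.

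Dnmt3b, the de novo enzyme most abundant in the epiblast, stood at 2682, 2862 and 2819 CPM at E5.0, 3953, 4352 and 4214 at E5.5 and 4533, 5324 and 5727 at E6.0. Each stage lay wholly above the one before. The log2 fold change was 0.88 ± 0.081 (adjusted p = 7.27e-06) from E5.0 to E6.0, 0.57 ± 0.081 (adjusted p = 0.00158) over the first step and 0.31 ± 0.080 (adjusted p = 0.0412) over the second, by edgeR's quasi-likelihood test. At E5.5 against E5.0, 2 of the 9 genes were called (Dnmt3b and Uhrf1), where 6.82% of all genes tested were called, 3.07% higher and 3.75% lower. At E6.0 against E5.5, 3 were called (Dnmt3b, Dnmt3l and Tet1), where 4.43% of all genes tested were called, 1.89% higher and 2.54% lower. These comparisons share the E5.5 embryos. The second step of Dnmt3b held with all embryos and without E6.0 embryo 1, but not without any other single embryo (adjusted p between 0.0943 and 0.179). Dnmt3c is a tandem copy of Dnmt3b that acts in male germ cells, and reads of the pair can be split wrongly; the counts given to Dnmt3c came to 0.389 to 0.652% of those given to Dnmt3b in the epiblasts.

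Dnmt3a was not called between any pair of stages, with 601, 709 and 622 CPM at E5.0, 580.3, 659 and 579 at E5.5 and 504, 528 and 653 at E6.0. The stages overlap, and the log2 fold change from E5.0 to E6.0 was -0.21 ± 0.11 (adjusted p = 0.186). The log2 ratio of Dnmt3b to Dnmt3a counts was 2.12 ± 0.090 at E5.0, 2.79 ± 0.072 at E5.5 and 3.21 ± 0.11 at E6.0 (SD, n = 3), with no overlap between stages. With counts divided by exon length, Dnmt3b made up 93.4 ± 0.392% of the sum of both genes at E5.0 and 96.8 ± 0.226% at E6.0.

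Dnmt3l, the cofactor, stood at 288, 330.3 and 429 CPM at E5.0, 109.8, 232 and 209 at E5.5 and 9.86, 16.03 and 26.96 at E6.0. Every E6.0 embryo was below every younger one, and E5.5 lay below E5.0. The fall passed from E5.5 to E6.0, at -3.37 ± 0.43 (adjusted p = 0.00702), and from E5.0 to E6.0, at -4.32 ± 0.45 (adjusted p = 0.000598), but the first step did not, at -0.94 ± 0.39 (adjusted p = 0.205) (edgeR's quasi-likelihood test). Without E6.0 embryo 2 the step from E5.5 to E6.0 had an adjusted p of 0.0557. The 5′ part of Dnmt3l overlaps Aire on the opposite strand. Use of strand in the counting is not given in the sources used here, so reads of the shared stretch cannot be told apart, and Aire counts moved with Dnmt3l: 292 to 438 at E5.0, 166 to 238 at E5.5 and 2 to 17 at E6.0. Visceral endoderm markers also fell over these days, 8 of 10 tested being called lower at E6.0 than at E5.0, where 11.6% of all genes were. Among the E5.0 embryos the marker sum was 682, 835 and 264 CPM in embryos 1, 2 and 4, whose Dnmt3l was at 288, 330.3 and 429 CPM. The part of these markers in the result was not tested.

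The members of a list of 12 germline genes, held silent by promoter methylation in somatic cells, did not all move alike. Their summed level, to which Rnf17 and Hormad1 gave the most at E5.0, was 130.4 to 171 CPM at E5.0, 86.6 to 119.7 at E5.5 and 51.9 to 65.9 at E6.0, with no overlap between stages. Over the first step 3 of 11 tested fell and 1 rose, where 3.75% of all genes were called lower and 3.07% higher. Their median log2 fold change was 0.15. Over the second 3 fell and none rose, where 2.54% of all genes were called lower and 1.89% higher, with a median of -0.93. From E5.0 to E6.0, 6 of 11 fell and 1 rose, where 21.8% of all genes were called, and their median fitted log2 fold change was -3.15. Hormad1, a meiotic chromosome axis gene, went from 35.7 ± 9.33 CPM to 1.72 ± 1.32. On the log2 scale it fell by 4.36, Slc25a31, a germ cell ADP/ATP carrier, by 3.66 and Rnf17, a spermatid gene, by 1.39. The gene called higher was Sycp1, of the synaptonemal complex, at 3.64 ± 1.05 (adjusted p = 0.0332) with means of 0.552 ± 0.480 CPM at E5.0, 12.2 ± 9.02 at E5.5 and 6.71 ± 4.83 at E6.0. Sycp3, of the same complex, and Ddx4, a germ cell RNA helicase, had higher means at E6.0 than at E5.0 without a call, at 1.27 ± 0.48 and 0.23 ± 0.33. The plot of the stage course shows these sums beside Dnmt3b and Dnmt3l.

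**Figure D2:**
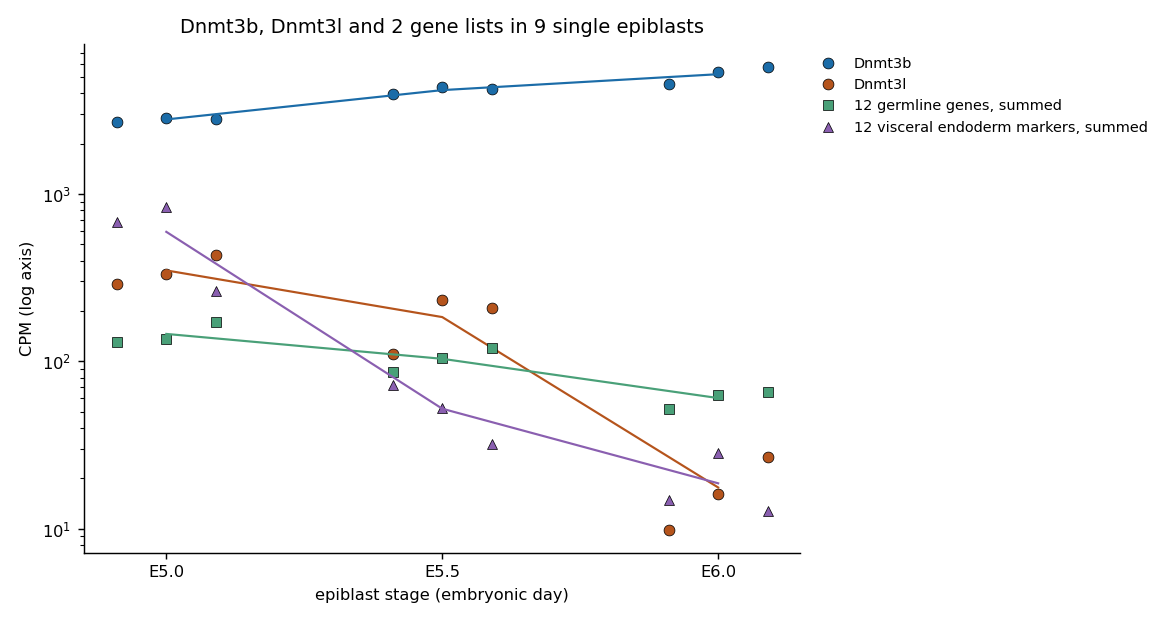
Dnmt3b and Dnmt3l (CPM) and the summed CPM of 12 germline genes and of 12 visceral endoderm markers in the 9 epiblasts, on a logarithmic axis, with 1 symbol per embryo, spread sideways within a stage, and lines joining stage means. Dnmt3b is higher at each later stage while Dnmt3l and both sums are lower, and in none of the 4 measures do the stages overlap.

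Of the demethylation genes, Tet1 was at 556, 545 and 554 CPM at E5.0 and 654, 521 and 512 at E5.5, then at 319, 310.0 and 346 at E6.0. All E6.0 embryos were below all younger ones, and the younger stages overlap. The log2 fold change was 0.016 ± 0.10 (adjusted p = 0.953) over the first step and -0.80 ± 0.10 (adjusted p = 0.000511) over the second, by edgeR's quasi-likelihood test. Tet2 was low throughout, with 90, 79 and 4 counts in the E5.0 embryos and 45, 43 and 55 at E6.0. Embryo 4 of E5.0, with 4 counts, stood far below embryos 1 and 2. The log2 fold change from E5.0 to E6.0 was -0.81 ± 0.78 (adjusted p = 0.507), and without that embryo it was -1.37 with an adjusted p of 0.0132. Tet3 ranged from 63.2 to 131 CPM over the 9 epiblasts and Tdg from 115 to 135, with log2 fold changes from E5.0 to E6.0 of 0.40 ± 0.28 (adjusted p = 0.355) and 0.13 ± 0.10 (adjusted p = 0.381).

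With counts divided by exon length, Tet1 made up 87.2 ± 4.11% of the sum of the 3 TET genes at E5.0, 87.2 ± 4.31% at E5.5 and 76.1 ± 4.05% at E6.0. The E6.0 embryos lay below all others, at 71.6 to 79.5%. Tet3 took 11.5 ± 3.33% at E5.0 and 22.8 ± 4.02% at E6.0, and Tet2 took 1.14 ± 0.571% over the 9 epiblasts.

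Some partners of these enzymes were called in either direction from E5.0 to E6.0, where 21.8% of all genes tested were called, so the counts per list are read against that share. Of 11 maintenance partners, Cdca7l, a relative of the HELLS activator CDCA7, rose by 0.94 ± 0.13, while Hells, a chromatin remodeller needed for methylation of repeats, fell by 0.70 and Pcna, the replication clamp, by 0.39 on the log2 scale. Those 3 had the smallest adjusted p of the 4 called, of which 3 fell. Of 18 TET cofactor and base excision genes tested, Cxxc5, which binds CG-rich DNA, and Idh2, which makes the TET cosubstrate, rose by 1.36 ± 0.22 and 0.78 ± 0.13, and Ung, a uracil glycosylase, was at -0.76 ± 0.14. Of 10 histone guide and imprint protection genes 3 were lower, led by Zfp57, which shields imprinted regions from demethylation, at -2.16 ± 0.27. Uhrf2, the paralog of Uhrf1, rose by 0.53 ± 0.15, the other way from Uhrf1. Of 9 methyl-CG readers 1, Zbtb38, was higher (1.74 ± 0.45), and of 10 methyl donor genes Ahcyl1 was higher (0.46 ± 0.11) and Mtrr lower (-0.75 ± 0.24).

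The comparison of cultures asks whether formative stem cells carry a different methylation machinery from EpiSCs. FS cells had more Dnmt3b and more Tet1 RNA than AF cells, and no member was called lower. These 2 of 9 calls are near the share over all genes tested, of which 19.5% were called, 8.86% higher and 10.6% lower. The count by itself does not set the 9 genes apart. The samples of FS and AF did not overlap for Dnmt3b or Tet1. The median log2 fold change of the 9 genes was 0.17, against 0.017 over all 16052 genes tested.

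Dnmt3b was at 1503, 1436 and 1934 CPM in FS1, 1250.1, 1958 and 1211 in FS2, 960.2, 549 and 849 in AF and 1272, 1069.6 and 1363 in AFX. Every FS sample and every AFX sample was above every AF sample, and FS and AFX overlap. The FS level was 1.96-fold that of AF, at 0.97 ± 0.20 (adjusted p = 0.00345) on the log2 scale by edgeR's quasi-likelihood test. Each FS line alone gave a call, at 1.04 for line 1 and 0.88 for line 2. FS against AFX gave 0.32 ± 0.19 (adjusted p = 0.353), and AFX against AF gave 0.65 ± 0.22 (adjusted p = 0.0877); these comparisons share samples. Reads given to Dnmt3c were 0.325 to 0.613% of those given to Dnmt3b in cultured cells.

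Tet1 was at 288, 275 and 284 CPM in FS1, 343, 401 and 332 in FS2, 231, 209 and 190.0 in AF and 259.6, 265 and 274 in AFX. AF lay below all other samples, and AFX lay below every FS sample with no overlap, though its highest value, 274, was next to the lowest FS value, 275. FS against AF was 0.60 ± 0.12 (adjusted p = 0.00262), FS against AFX 0.26 ± 0.12 (adjusted p = 0.205) and AFX against AF 0.34 ± 0.13 (adjusted p = 0.145) (edgeR's quasi-likelihood test). Both calls of FS against AF held when any 1 sample was left out. AF also stood apart in markers of other cell types, where 10.6% of all genes were called lower in FS. Of those tested, 8 of 10 feeder fibroblast, 5 of 5 visceral endoderm and 4 of 6 extraembryonic ectoderm markers were called lower in FS. Only 5 of 12 visceral endoderm markers passed the filter, which keeps genes high in some group, and their sum was highest in AF. Their shared direction was thus partly set by the filter. The part of these markers in the Dnmt3b and Tet1 results was not tested.

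Against AFX no member was called in FS by edgeR's quasi-likelihood test, where 8.7% of all genes tested were called, 3.78% higher and 4.92% lower. Only Tet1 had an unadjusted p under 0.05, and DESeq2's Wald test called 0. No member was called between AFX and AF either, where 8.73% of all genes tested were called, 4.3% higher and 4.42% lower. There Dnmt3b and Tet1 had an unadjusted p under 0.05, and DESeq2's Wald test called Dnmt3b (0.64, adjusted p = 0.0415). Dnmt3l had 5, 9 and 46 counts in AF and 64, 65 and 28 in AFX, against the 3, 3 and 2 of FS1 and the 46, 13 and 52 of FS2. The highest cultured sample, AFX passage 15, lay next to the lowest epiblast, E6.0 embryo 1, and FS2, AF and AFX overlap. With FS line 1 alone Dnmt3l was called lower than in AFX (-4.14, adjusted p = 0.0117), and with line 2 alone Tet1 was called higher (0.41, adjusted p = 0.0321). The 7 other members gave log2 fold changes of FS against AF between -0.35 (Dnmt3l, SE 0.87) and 0.21 (Dnmt1, SE 0.12).

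Of the partners, 3 of 10 maintenance genes tested were higher in FS than in AF, where 8.86% of all genes were called higher and 10.6% lower, a share to set beside each list count: Cdca7l at 0.59 ± 0.13, Cdca7 at 0.42 ± 0.10 and Hells at 0.38 ± 0.12. Cdca7 and Hells, which form a remodelling complex, were also higher in AFX than in AF, at 0.65 ± 0.11 and 0.50 ± 0.14. AF passage 15 stood apart from the other AF samples, at 22.3 and 29.0 times the sampling noise against 4.84 between those, with the lowest Dnmt3b and the lowest replication gene sum (1549 CPM against 2157 and 2066). Without it Hells was no longer called in either comparison (0.24, adjusted p = 0.166, and 0.36, adjusted p = 0.113), Cdca7 and Cdca7l were still called higher in FS, and Dnmt3b, still called in FS against AF, was at 0.77. Mbd3, Shmt1 and Cxxc1 were then called lower in FS. Dppa3, which counters maintenance methylation, had no counts in FS and had not passed the filter on all samples. Without AF passage 15 it passed through the AF samples left. Its calls, lower in FS and in AFX than in AF, thus had their direction set by the filter. Leaving that sample out of the lists was chosen after the data were seen. Of 9 methyl-CG readers, Mbd2 and Mbd6 were lower in FS than in AF, at -1.09 ± 0.21 and -0.63 ± 0.12, and of 18 TET cofactor and base excision genes only Cxxc5 was called, lower at -0.58 ± 0.11. Of 9 methyl donor genes Mat2b and Mtr were higher, at 0.52 ± 0.14 and 0.53 ± 0.15, and of 10 histone guide genes Setdb1, a histone H3K9 methyltransferase, at 0.55 ± 0.13. None of 14 replication genes was called between FS and AF (edgeR's quasi-likelihood test). Of the 12 germline genes only 2 passed the filter in cultured cells, Sycp3 and Rnf17. Both were called higher in AFX than in AF, where 4.3% of all genes were. Both were called lower in FS than in AFX, at -3.31 ± 0.64 and -2.81 ± 0.63, where 4.92% were. The filter keeps genes that are high in some group, and both were highest in AFX. The direction of these calls is therefore no evidence about the list. Without AF passage 15 Rnf17 was no longer called between AFX and AF (adjusted p = 0.0529). Rnf17 averaged 18.1 ± 5.82 CPM in AFX and 0.746 ± 0.350 in AF, and Sycp3 20.7 ± 15.7 in AFX and 0.275 ± 0.0972 in AF, where it was at the floor.

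**Figure D3:**
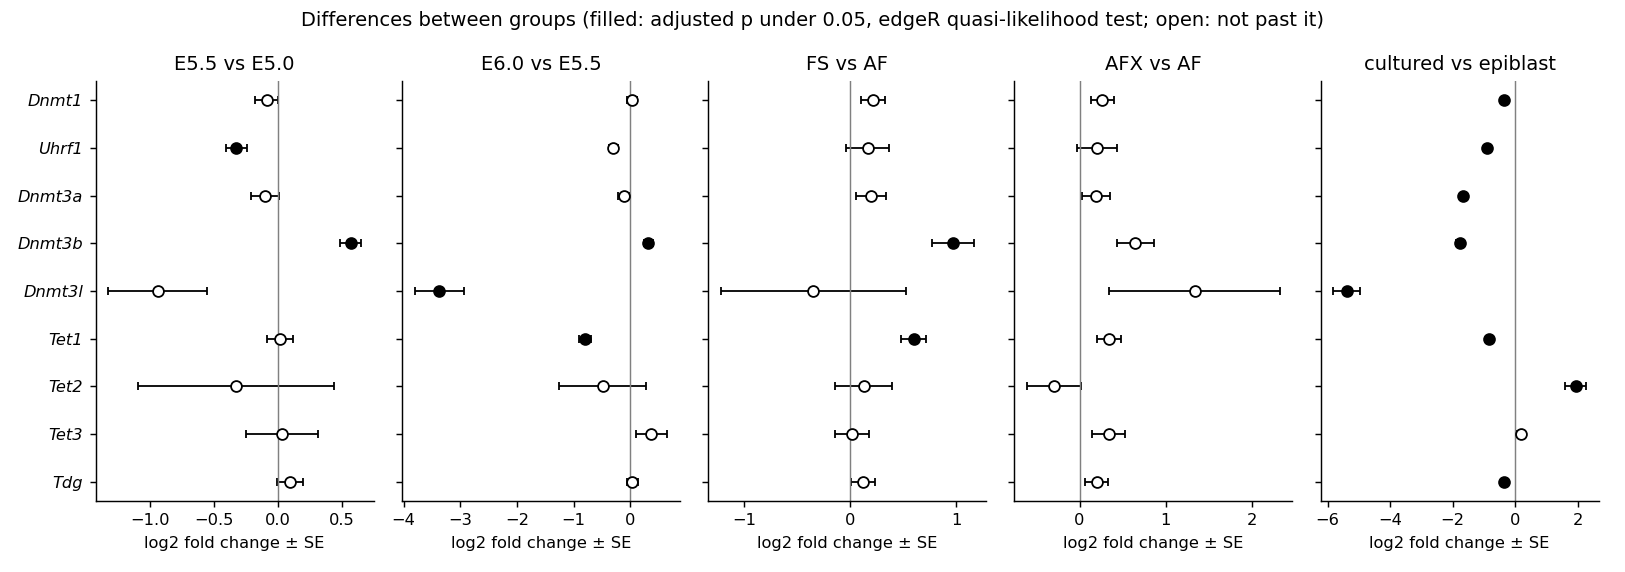
Log2 fold change with its SE of the 9 genes in 5 comparisons, filled where the adjusted p was under 0.05 and open where it was not; each panel has its own horizontal scale. Dnmt3b and Tet1 are the filled points of FS against AF, no point is filled for AFX against AF, and 7 of 8 filled points lie below 0 for cultured cells against epiblasts.

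Within FS, 2 members differed between the lines: Uhrf1 was lower and Dnmt3l higher in line 2, where 3.85% of all genes tested were called, 2.65% higher and 1.2% lower. Uhrf1 was at 389, 366 and 492 CPM in line 1 and 257, 263 and 280.0 in line 2, without overlap, a log2 fold change of -0.66 ± 0.15 (adjusted p = 0.0218) by edgeR's quasi-likelihood test. Dnmt3l had 3, 3 and 2 counts in line 1 and 46, 13 and 52 in line 2. Line 1 was thus at or under the floor of 3 counts in each sample. The ratio of the summed counts, corrected for depth, was 10.8, with an exact 95% interval of 5.31 to 25.7 that covers counting error only. The fitted log2 fold change, which at such counts depends on the prior count, was 3.29 ± 0.83 (adjusted p = 0.0426). The Uhrf1 call was lost without passage 18 of line 1 or any 1 passage of line 2 (adjusted p up to 0.0965), and the Dnmt3l call without any 1 sample other than passage 13 of line 2 (up to 0.148). Dnmt1 and Tet1 had unadjusted p under 0.05 and were not called, at -0.31 ± 0.10 (adjusted p = 0.124) and 0.33 ± 0.10 (adjusted p = 0.100). Dnmt1 was called with only the FS lines in the fit (-0.30, adjusted p = 0.0483) and Tet1 with DESeq2's Wald test (0.33, adjusted p = 0.0316).

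Among the partners, Neil3, a base excision glycosylase, averaged 14.6 ± 4.87 CPM in line 1 and 2.43 ± 0.531 in line 2, at -2.58 ± 0.36 (adjusted p = 0.000635). Rnf17 was higher in line 2, at 2.45 ± 0.55 (adjusted p = 0.0235). The 12 germline genes summed to 0.355 to 3.18 CPM in line 1 and 6.44 to 10.03 in line 2. No gene of the maintenance, reader, methyl donor, histone guide or replication lists was called between the lines by edgeR's quasi-likelihood test.

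Cultured cells had less RNA of 7 of the 9 genes than epiblasts and more Tet2, where 61.8% of all genes tested were called, 33.9% higher and 27.9% lower, so a call by itself sets no gene apart here. Averaged over the groups, Dnmt3l was 42.1-fold lower, Dnmt3b 3.43-fold, Dnmt3a 3.19-fold and Uhrf1 1.85-fold, while Dnmt1 and Tdg were 1.28-fold and 1.27-fold lower. The median log2 fold change of the 9 genes was -0.83, against 0.087 over all 16614 genes tested. All 8 calls held when any 1 of the 21 samples was left out. Markers of other cell types moved in the same comparison: 8 of 10 feeder fibroblast markers were higher in culture and 1 lower (median log2 fold change 2.85, summed levels 26.3 to 283 CPM against 11.9 to 29.7), and 8 of 11 visceral endoderm markers were lower and 1 higher (median -4.27, 0.241 to 184 against 12.8 to 835). Their part in the results was not tested.

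Dnmt3a in the 12 cultured samples was 156 at the lowest, 190.1 at the median and 266 at the highest, and in the 9 epiblasts 504 at the lowest, 601 at the median and 709 at the highest (CPM). The sets do not overlap, and the log2 fold change was -1.68 ± 0.084 (adjusted p = 2.03e-13) by edgeR's quasi-likelihood test. Dnmt3b in cultured cells was 549 at the lowest, 1261 at the median and 1958 at the highest, all below the lowest epiblast, at 2682 CPM. Its log2 fold change was -1.78 ± 0.10 (adjusted p = 1.37e-11), from -1.43 ± 0.15 for FS against E5.5 to -2.72 ± 0.19 for AF against E6.0. Dnmt3l was 0.163 at the lowest, 1.85 at the median and 8.14 at the highest in cultured cells, and the highest of these was below the lowest E6.0 embryo, at 9.86. Its log2 fold change was -5.40 ± 0.42 (adjusted p = 2.18e-08), and by pair of groups it was -6.82 ± 0.61 for FS against E5.5, -3.17 ± 0.79 for AF against E6.0 and -1.90 ± 0.70 for AFX against E6.0. Without AF passage 16, which had 46 counts against 5 and 9 in the other AF samples, AF against E6.0 gave -4.60. Aire counts were 1 to 38 in cultured samples.

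Uhrf1 was 228 at the lowest, 337 at the median and 492 at the highest CPM in cultured cells and 463 at the lowest, 619 at the median and 763 at the highest in epiblasts, with overlap, at -0.89 ± 0.10 (adjusted p = 2.17e-07). Dnmt1, its partner in maintenance, was at 386 ± 46.7 CPM in cultured cells (SD, n = 12) and 488 ± 29.03 in epiblasts (n = 9), at -0.36 ± 0.063 (adjusted p = 3.82e-05). Of 14 replication genes 13 were lower in cultured cells, where 27.9% of all genes were called lower. Mcm2 led at -1.04 ± 0.062, and the sums were 1549 to 2486 CPM against 3600.3 to 4223. Of 11 maintenance partners 9 were lower, among them Hells at -1.01 ± 0.072, Pcna at -1.01 ± 0.076 and Usp7, a deubiquitinase that stabilises DNMT1 and UHRF1, at -0.69 ± 0.055. The part of replication in the Uhrf1 and Dnmt1 results was not tested.

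Tet1 was 190.0 at the lowest, 274 at the median and 401 at the highest CPM in cultured cells and 310.0 at the lowest, 521 at the median and 654 at the highest in epiblasts. The E6.0 embryos lay within the cultured range, and the log2 fold change over all was -0.83 ± 0.070 (adjusted p = 1.06e-09). Tet2 went the other way: 13.5 at the lowest, 28.7 at the median and 40.9 at the highest in cultured cells and 0.480 at the lowest, 6.67 at the median and 15.5 at the highest in epiblasts. Only E5.0 embryo 2, at 15.5, was above the lowest cultured sample, AFX passage 15 at 13.5. The log2 fold change of Tet2 was 1.94 ± 0.33 (adjusted p = 7.32e-05). Tet3 was at 97.9 ± 19.02 CPM in cultured cells and 88.8 ± 25.4 in epiblasts, at 0.17 ± 0.13 (adjusted p = 0.274), and was not called in any comparison. Tdg was at 98.03 ± 10.5 and 124 ± 7.80 CPM without overlap, at -0.34 ± 0.065 (adjusted p = 0.000102). A Tdg pseudogene took counts equal to 15.4 to 23.5% of those of Tdg in cultured cells and at most 20.2% in epiblasts, so the split between these copies is uncertain.

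The labels tie no culture to a stage. Of the pairs of culture and stage chosen here, FS against E5.5 and AF against E6.0 each gave 8 calls (Tet2 higher and 7 lower). For FS against E5.5, 43.8% of all genes tested were called, 23% higher and 20.8% lower, and for AF against E6.0, 35.2% of all genes tested were called, 18.1% higher and 17.1% lower. AFX against E6.0 gave 6 (Tet2 higher; Uhrf1, Dnmt3a, Dnmt3b, Dnmt3l and Tdg lower), where 32.8% of all genes tested were called, 17.1% higher and 15.8% lower. The last 2 comparisons share the E6.0 embryos. With DESeq2 size factors Uhrf1, Dnmt3l and Tdg no longer passed in AFX against E6.0, and Uhrf1 and Tdg did not pass when any 1 of the 6 samples was left out. Dnmt3l there was lost without AFX passage 14 or 16 or E6.0 embryo 2 or 3 (adjusted p up to 0.184), and Tet2 without E6.0 embryo 2 (0.0597). Dnmt3l was also lost with DESeq2's Wald test (0.0999), and without the filter Uhrf1, Dnmt3l and Tdg were lost. With only these groups in the fit Dnmt1 (-0.24, adjusted p = 0.0469) and Tet1 (-0.28, adjusted p = 0.0236) were called lower as well. In FS against E5.5 the Dnmt1 difference, -0.26 ± 0.10 (adjusted p = 0.0329), was lost with line 1 alone, without the filter (0.0706) and without any 1 passage of line 2 or any 1 E5.5 embryo, and that of Tdg without E5.5 embryo 3 (0.052) and with line 2 alone (0.0941).

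The balance within each family is given as shares and ratios, with no test. Tet1 made up 73.6 ± 3.57% of the length-scaled TET sum in FS (n = 6), 65.7 ± 3.68% in AF and 67.9 ± 3.11% in AFX, and Tet2 made up 6.45 ± 2.18% over the 12 cultured samples, where the lowest, at 3.23%, was above the highest epiblast, at 2.15%. The log2 ratio of Dnmt3b to Dnmt3a was 3.17 ± 0.19 in FS1, 2.74 ± 0.15 in FS2, 2.16 ± 0.32 in AF and 2.65 ± 0.041 in AFX (n = 3 each). Over all samples it was 2.68 ± 0.41 in culture and 2.70 ± 0.48 in epiblasts, although both genes were lower in culture.

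**Figure D4:**
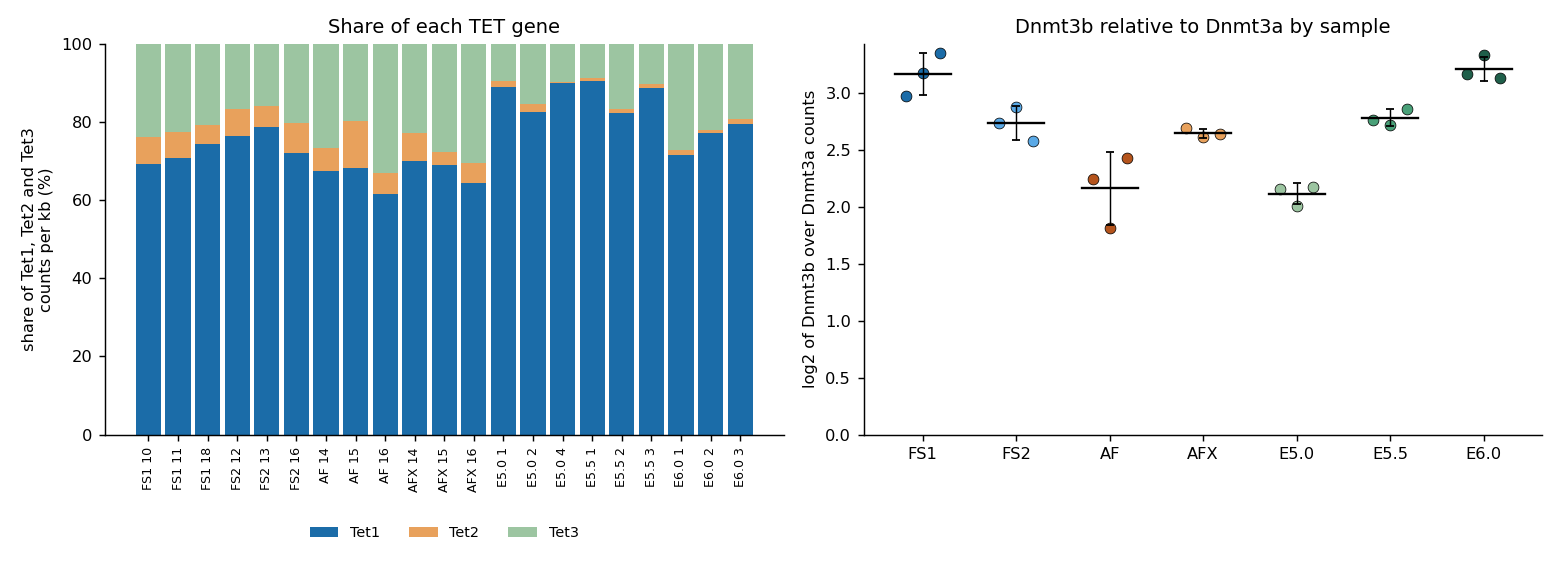
Left, share of Tet1, Tet2 and Tet3 in their sum of counts per kb (%), 1 bar per sample named by group and passage or embryo. Right, log2 ratio of Dnmt3b to Dnmt3a counts, 1 point per sample with group mean and SD: the ratio climbs from E5.0 to E6.0, and FS1 lies at the E6.0 level and AF near that of E5.0.

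Other genes of the pathway were called in both directions between culture and embryo, where 33.9% of all genes were called higher and 27.9% lower. Of 18 TET cofactor and base excision genes, 9 were higher and 4 lower in culture, those with the smallest adjusted p including Idh1, which makes the TET cosubstrate in the cytoplasm, at 2.03 ± 0.11, and Ung at -1.63 ± 0.088. Of 9 methyl-CG readers 5 were higher, among them Zbtb4 at 2.23 ± 0.30, and Mbd3, of the NuRD complex, was lower at -0.82 ± 0.081. Of 10 histone guide and imprint genes 2 were higher, Zfp57 at 1.34 ± 0.12 and Nsd2, an H3K36 methyltransferase, at 1.21 ± 0.085, and 7 lower. Of 10 methyl donor genes 6 were lower, among them Shmt1, a folate-cycle enzyme, at -1.11 ± 0.089, and 2 higher. Of the other DNMT family genes Uhrf2 was higher at 0.65 ± 0.071 and Dnmt3c, listed as a pseudogene, lower at -1.87 ± 0.16. All 11 germline genes tested were lower in culture on average over the groups. Only 2 of the 12, Sycp3 and Rnf17, passed the filter on cultured samples alone, and Asz1 and Taf7l had no counts in culture. The others entered the test with the epiblasts, where they are high, so this direction was largely set by the filter. In AFX against E6.0 only 7 of 11 were called lower, where 15.8% of all genes were. In culture the 12 summed to 0.355 to 10.03 CPM in FS, 0.528 to 3.25 in AF and 22.8 to 61.02 in AFX against 51.9 to 171 in epiblasts.

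Genes with the most similar pattern were found by Pearson's r of log2 CPM over the 21 samples, after the means of the cultured and of the epiblast samples had been taken off, among 9001 genes with a mean of at least 5 CPM. The samples share group differences, so these values are a description with no test. Dnmt3b was most like Plch1 (0.89) and Skida1 (0.89), and Dnmt3l like Rex2 (0.88) and Tuba3a (0.88). Tet1 was most like Mtus2 (0.91) and Fgf4 (0.88), and Tet2 like Harbi1 (0.85) and Rfx5 (0.82). Uhrf1 was most like Lsm2 (0.85) and Fam102a (0.84), Dnmt1 like Itpripl1 (0.79) and Sart3 (0.79), and Dnmt3a like Etv5 (0.71) and Slc37a1 (0.70). Tdg was most like Heatr1 (0.91) and Nmd3 (0.89), and Tet3 like Ncapg2 (0.81) and Zdhhc3 (0.80).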

How the data were processed

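The deposited table holds raw read counts per gene for 21 samples; per the submitters' processing notes, the authors used Trim Galore, TopHat2 2.1.0 and featureCounts 1.5.0 with mm10, and the annotation and strand setting are not given in the sources used here. Total RNA came from 1000 cultured cells or 1 epiblast per sample, with a PicoPure kit, per the labels. Counts were tested with edgeR 4.0.16 in R 4.3.3 (quasi-likelihood F-test, filterByExpr, TMM, robust), Benjamini-Hochberg adjusted over all genes tested, with calls at an adjusted p under 0.05. Cultured samples, epiblasts and all 21 were fitted separately, with FS1 and FS2 as 1 group except where compared. SEs were derived from the fold change and its F statistic. Overlap of samples between groups is given as a description, and its share over all genes was not computed. Each sample was left out in turn, and DESeq2 1.42.0 scaling and Wald test, no filter, removal of ribosomal RNA loci (20.0 to 31.7% of counts; the set was extended after the counts were seen), fewer samples in the fit and each FS line alone were tried. Replicate pairs differed by 4.84 to 29.0 times the sampling noise (chi-square per degree of freedom), so none was a duplicate. CPM were scaled over all 21 samples; lengths are exon unions of GENCODE M21, which held 33683 of the 33861 identifiers, and promoter windows come from RefSeq (GRCm38.p6). The fits were tested on simulated data.

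The 9 genes and the lists (131 genes in 12 lists, 130 matched) were chosen with earlier results of these data known. Named are all 9 genes, up to 3 genes per list and comparison with the smallest adjusted p among those called, genes needed to describe a list, and for each of the 9 the 2 genes most like it, without multigene families and pseudogenes.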

Additional observations from a re-analysis of the deposited data

Results flagged for a closer look

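The FS lines, which the labels treat as 1 cell type, differed by a direct test for 2 of the 9 genes, where 3.85% of all genes were called, 2.65% higher and 1.2% lower in line 2. Uhrf1 had a log2 fold change of line 2 over line 1 of -0.66 ± 0.15 (edgeR's quasi-likelihood test, adjusted p = 0.0218), and all 3 samples of line 2 lay below all 3 of line 1. Dnmt3l had 3.29 ± 0.83 (adjusted p = 0.0426), with 3, 3 and 2 counts in line 1 and 46, 13 and 52 in line 2. Leaving out 1 sample left 0 or 1 of these calls, with adjusted p up to 0.0965 for Uhrf1 and 0.148 for Dnmt3l. The passages of the lines interleave (10, 11 and 18 against 12, 13 and 16).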

How the results depend on the processing

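No member changed direction in any fit in which its difference from 0 exceeded its SE in the fit reported. Of such fold changes, 594 of 639 kept their side of the threshold when 1 sample was left out, 44 lost it and 1 gained it. Under the other settings 425 kept it, 15 gained it and 12 lost it. For FS against AFX, 1 member was called in place of 0 with FS line 1 alone, with line 2 alone and with the lines as separate groups (Dnmt3l, at -2.50). For AFX against AF, 1 was called in place of 0 with DESeq2's Wald test, with the FS lines as separate groups (Tet1, at 0.34) and with a replicate block of passage number (Dnmt3b, at 0.68). For E5.5 against E5.0, 1 was called in place of 2 with only these groups fitted and with a replicate block of embryo number (Uhrf1 lost). For AFX against E6.0, 3 were called in place of 6 with DESeq2 size factors and without the filter. Leaving out 1 sample gave 0 to 1 members for FS2 against FS1, 1 to 2 for E5.5 against E5.0, 1 to 3 for E6.0 against E5.5 and 2 to 4 for AFX against E6.0. The cause was not tested.

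Over all genes, calls for FS2 against FS1 went from 618 to 1099 (Wald test), 1298 (no filter) and 1045 (only these groups), for E5.5 against E5.0 from 971 to 1590, 1659 and 453, and for E6.0 against E5.5 from 631 to 1075, 1107 and 1445. The share of calls that were higher moved from 68.8% to 55.4% without the filter for FS2 against FS1 and from 45.01% to 33.1% with only these groups for E5.5 against E5.0. Leaving out 1 sample lowered the calls most for E6.0 against E5.5, to 238 without E6.0 embryo 2, for FS2 against FS1, to 316 without passage 11 of line 1, for E5.5 against E5.0, to 371 without E5.5 embryo 2, and to 732 for AFX against AF and 820 for FS against AFX, without AFX passages 15 and 16 respectively; E6.0 against E5.0 went from 3100 to 1905 without E6.0 embryo 2. The pairing check found correlations of same-numbered samples from -0.21 to 0.31 and of samples with different numbers from -0.41 to 0.43. With 3 samples per group it cannot tell whether the numbers pair the samples. With the replicate block 907 genes were called for AFX against AF and 421 for E5.5 against E5.0. With that block Uhrf1 from E5.5 to E6.0 (-0.30, adjusted p = 0.049989) and Tet2 from E5.0 to E6.0 (-1.45, adjusted p = 0.0349) were also called; E5.0 embryo 4 is alone in its block there. Tet2 in epiblasts and Dnmt3l in culture rest on few counts.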
